A study of Mus musculus with 24 samples.

Results

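The 4 genes of the CXCR3 chemokine axis were followed in the pancreatic islets of NOD mice: Cxcl9, Cxcl10 and Cxcl11, which encode the chemokines that bind CXCR3, and Cxcr3, which encodes their receptor. They were taken by name from every noncontrol probe of the arrays, which gave 4 probes, 1 per gene, among 41174 probes. All 4 genes passed the filter on dim probes and stand among the 18085 genes tested.

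CXCR3 is a G protein-coupled receptor carried mainly by activated T helper 1 cells, cytotoxic T cells and natural killer cells, and its ligands draw these cells into inflamed tissue. Interferon gamma induces all of the ligands, and Cxcl10 also answers to type I interferon and to NF-kB, while Cxcl9 depends most on interferon gamma. In islets, beta cells, other islet cells and resident macrophages can make these ligands under cytokine exposure, and the ligands are known from the islet infiltrate of autoimmune diabetes.

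Islets were isolated with collagenase from female NOD/LtJ mice, a strain that develops autoimmune diabetes spontaneously, 6 mice at each of 4 ages: 10 days and 4, 12 and 20 weeks. Each mouse had its own two-colour array, on which its RNA, labelled with Cy5, met a Cy3-labelled pool from 6 female NOD.B10Sn-H2b/J mice of the same age, a congenic NOD strain with another major histocompatibility haplotype that served as the healthy control. No mouse was treated, and the labels were read as 1 pool per age on all 6 arrays of that age. The pool is therefore 1 control sample per age: a test of the ratio against 0 leaves out the spread between control mice, and pools that differ between ages move the change from one age to another. Ratios are log2(NOD/pool), above 0 where the NOD mouse had more, with the SD over 6 mice. A call needed a change of at least 2-fold and a limma p under 0.05 after Benjamini-Hochberg adjustment. A probe's dye effect is the same on every array, so it stays in a ratio and drops out of a difference between ages.

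On the 24 arrays, the share of probes well above background was 42.3% to 64.6% for NOD RNA and 39.4% to 60.4% for the pools. All 10 endocrine marker genes were measured. Against the pool, 7 were called higher in NOD at 10 days, and 2, 3 and 6 were called lower at 4, 12 and 20 weeks. With arrays centred on their medians the 12-week count became 3 higher, in a setting that called 23.5% of all genes higher at that age. Calls against a pool do not check islet identity. The summed linear normalized intensity of these 10 genes in the NOD channel ran from 467358 to 787929, 306556 to 525351, 371413 to 483058 and 85891 to 554106 in the order of age. That of 6 acinar markers ran from 357721 to 586314, 654826 to 1009447, 324520 to 692132 and 235934 to 1408086. Other tissue moved with age as well. At 10 days all 5 stellate cell and fibroblast markers were called lower in NOD than in the pool, and at 4 weeks all 6 acinar markers were called higher. In bulk islets, fewer cells of a type and less RNA per cell cannot be told apart.

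The ligand genes lie beside each other. In the RefSeq gene table of the mouse assembly GRCm38.p6, Cxcl9, Art3, Cxcl10 and Cxcl11 follow one another on chromosome 5, and the C57BL/6J copy of Cxcl11 is annotated there as a transcribed pseudogene. On mm9, the build of the array files, the Cxcl9 probe lies at chr5:92752191-92752250, the Cxcl10 probe at chr5:92775781-92775840 and the Cxcl11 probe at chr5:92790123-92790274, all for minus-strand transcripts. The Cxcr3 probe lies at chrX:98926920-98926979, also for a minus-strand transcript. Every probe is 60 bases long. The Cxcl11 probe covers 152 bases of genome, so it crosses an intron, and it is shown because every Cxcl11 value rests on it.
Cxcl11 probe: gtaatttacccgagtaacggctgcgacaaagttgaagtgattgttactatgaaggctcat

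The 250 bases before the transcript start are shown for the 3 members with an entry among the RefSeq promoters, because the ligand genes differed in how they moved. Motifs were searched on both strands: the interferon-stimulated response element (ISRE; a pair of GAAA with any 2 bases between), the gamma-activated site TTCNNNGAA, and NF-kB motifs of GGGA and TTCC with any 2 bases between (the longer form) or 1 base less (GGGANTTCC). Capitals mark the matches.
Cxcl9 (GRCm38.p6 chr5:92328080-92328329, minus strand): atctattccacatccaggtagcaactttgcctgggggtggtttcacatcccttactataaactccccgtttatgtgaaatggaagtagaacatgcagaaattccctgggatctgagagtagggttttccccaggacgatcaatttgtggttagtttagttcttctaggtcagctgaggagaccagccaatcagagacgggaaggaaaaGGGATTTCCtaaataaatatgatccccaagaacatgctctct
Cxcl10 (GRCm38.p6 chr5:92348890-92349139, minus strand): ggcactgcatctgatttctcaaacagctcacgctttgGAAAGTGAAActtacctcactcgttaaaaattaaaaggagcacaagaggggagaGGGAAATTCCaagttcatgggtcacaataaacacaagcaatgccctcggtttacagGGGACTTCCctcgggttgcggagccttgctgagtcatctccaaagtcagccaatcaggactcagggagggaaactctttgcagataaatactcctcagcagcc
Cxcr3 (GRCm38.p6 chrX:101734148-101734397, minus strand): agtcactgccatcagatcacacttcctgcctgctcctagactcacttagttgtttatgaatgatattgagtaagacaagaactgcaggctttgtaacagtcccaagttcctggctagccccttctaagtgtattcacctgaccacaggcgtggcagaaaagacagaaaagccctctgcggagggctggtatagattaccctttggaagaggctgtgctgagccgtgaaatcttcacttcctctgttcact

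The Cxcl10 window held 3 matches: an ISRE match at -213 to -204 from the transcript start, a match to the longer NF-kB motif at -159 to -150 and a GGGANTTCC match at -103 to -95. The Cxcl9 window held a GGGANTTCC match at -42 to -34, and the Cxcr3 window held no match to any of the 4 motifs. Among 32851 promoter windows of this length, 2.98% held the ISRE, 7.02% TTCNNNGAA, 1.21% the longer NF-kB motif and 1.43% GGGANTTCC. A match describes the letters and is not a measured binding site. Only these 4 letter forms were searched, so a window without a match can hold other response elements.

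Cxcl9 went from a low level in young NOD islets to a high one at 12 and 20 weeks, and its mean ratios spanned the widest range of the 4 genes. At 10 days the ratio was lowest at -1.32, with a median of -0.73 and a highest value of -0.28, so every mouse lay below its pool, which held for 20.1% of all genes at that age. The mean of -0.76 ± 0.43 had a limma adjusted p of 0.0263 but did not reach 2-fold, which it did in the scanner software's own ratio (-1.83, limma adjusted p = 0.0131). At 12 weeks the lowest, median and highest ratios were 1.94, 2.52 and 3.16, and at 20 weeks they were 2.71, 3.79 and 4.29. The means of 2.54 ± 0.41 and 3.72 ± 0.56 correspond to 5.81-fold (limma adjusted p = 2.78e-07) and 13.2-fold (limma adjusted p = 9.59e-10) more in NOD islets. No mouse of 12 or 20 weeks overlapped any mouse of 10 days or 4 weeks, and the share of all genes without overlap was not counted.

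At 4 weeks the Cxcl9 ratios fell into 2 sets of 3 mice. Replicates 2, 4 and 6 stood at 1.88, 1.72 and 1.41, and replicates 1, 3 and 5 at -0.42, -0.58 and -0.48. The mean of 0.59 ± 1.20 was not called (limma adjusted p = 0.0844), and the gap between the sets exceeded the spread within each.

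**Figure D1:**
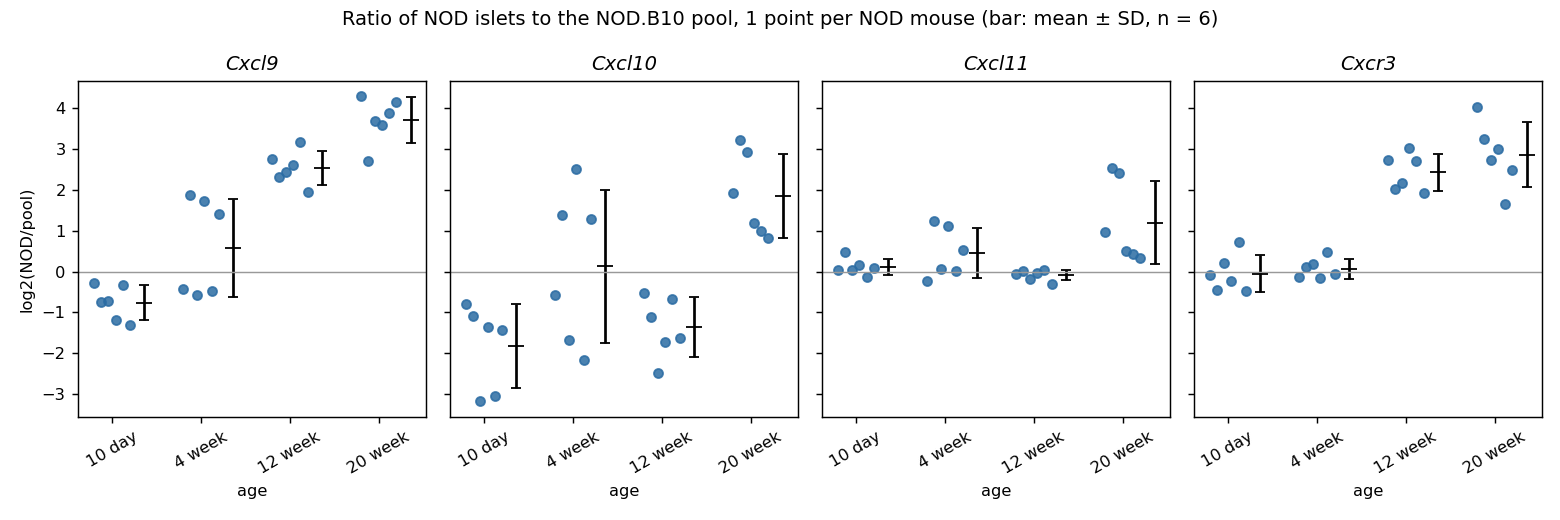
Each point is the log2(NOD/pool) of 1 NOD mouse, in 4 panels by gene and by age on the horizontal axis; bars give the mean ± SD of 6 mice. Cxcl9 and Cxcr3 sit above 0 in every mouse at 12 and 20 weeks, Cxcl10 is below 0 in every mouse at 10 days and 12 weeks, and Cxcl11 is above 0 in every mouse only at 20 weeks.

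Between ages the Cxcl9 ratio differed in all 6 comparisons. It rose by 1.35 ± 0.39 (SE) from 10 days to 4 weeks, by 1.95 ± 0.39 from 4 to 12 weeks and by 1.18 ± 0.39 from 12 to 20 weeks, with limma adjusted p of 0.00685, 6.55e-04 and 0.0302. From 10 days to 20 weeks it rose by 4.48, or 22.3-fold. With Cxcl9, 2 of 4 members were called higher in each of the steps up to 12 weeks and 3 of 4 from 12 to 20 weeks. Beside these calls, 5.15% of all genes were called higher from 10 days to 4 weeks, 2.97% from 4 to 12 weeks, 2.01% from 12 to 20 weeks and 7.74% from 10 days to 20 weeks. The shares were 5% from 10 days to 12 weeks and 3.65% from 4 to 20 weeks. The first step was 1.99 in the scanner ratio (limma adjusted p = 0.0546) and 0.75 with arrays centred on their medians in place of loess (limma adjusted p = 0.118). The step from 12 to 20 weeks was the least stable: with that centring it was -0.42 (limma adjusted p = 0.392), against an all-gene median of -0.78 in that setting. Leaving out 1 mouse at a time moved its adjusted p above 0.05 in 5 of 12 cases, those without 12-week replicates 2, 3 or 6 or 20-week replicates 1 or 6, with values from 1.06 to 1.38 across all 12. On the slide that carried both ages the difference was 0.95, with 2 mice of each age.

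The NOD channel on its own gave 2 levels of Cxcl9. In log2 intensity it was 6.70 ± 0.48 and 7.26 ± 1.11 at the younger ages, then 11.46 ± 0.63 at 12 weeks and 11.55 ± 0.59 at 20 weeks. The rise from 4 to 12 weeks was 4.20 (18.3-fold, with Cxcl9 well above background on 4 of 6 arrays at 4 weeks; limma adjusted p = 2.27e-07), where 4.27% of genes were called higher, against 3.72% from 10 days to 12 weeks, 1.84% from 10 days to 4 weeks and 0.221% from 12 to 20 weeks. The neighbours in this order did not differ otherwise: 20 minus 12 weeks was 0.09 with a 95% interval of -0.75 to 0.93 (limma adjusted p = 0.933), and 4 weeks minus 10 days was 0.57 with an interval of -0.27 to 1.41.

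The normalized pool channel moved too, and the ratio carries it. The pool's normalized Cxcl9 level was 7.46, 6.68, 8.92 and 7.83 log2 units at 10 days, 4, 12 and 20 weeks. Before normalization, its background-subtracted Cy3 signals ran from 88 to 97, 59 to 89, 93 to 174 and 113 to 938 in the same order. The lowest and highest raw signals were thus both higher at 20 than at 12 weeks, where the normalized level was lower. The part of scaling in this was not tested. At 20 weeks the 6 readings of that pool were not alike. Their background-subtracted Cy3 signals ran from 113 to 938, an 8.31-fold range, where Cxcl10 readings of the same pool spanned 1.52-fold. Across these 6 arrays the Cy3 and Cy5 signals of Cxcl9 had the same rank order (Spearman 1.00, a description of arrays that share 1 pool). The value was 0.77 for Cxcl9 at 12 weeks and 0.94 for Cxcr3 at both 12 and 20 weeks. At 20 weeks it was -0.83 for Cxcl10 and 0.54 for Cxcl11. The part of this in the ratios was not tested.

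Cxcl10, the ligand gene that also answers to type I interferon and NF-kB, changed sign with age and did not follow Cxcl9 at 12 weeks. At 10 days its ratios had a lowest value of -3.17, a median of -1.38 and a highest of -0.78, and the mean of -1.81 ± 1.03 was 3.50-fold lower in NOD (limma adjusted p = 0.00295). It was the only member called at 10 days, when 2.36% of all genes were called lower and 1.61% higher. At 12 weeks the values were -2.48, -1.37 and -0.53, and the mean of -1.35 ± 0.73 was 2.56-fold lower (limma adjusted p = 0.0287), so 1 member was called lower where 1.42% of genes were. At 20 weeks the values were 0.83, 1.56 and 3.23, and the mean of 1.85 ± 1.03 was 3.60-fold higher (limma adjusted p = 0.00258). All 6 mice lay below 0 at 10 days and 12 weeks and above 0 at 20 weeks, a pattern shown by 20.1%, 20.1% and 17.5% of genes at each of these ages alone.

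At 4 weeks the Cxcl10 mean of 0.13 ± 1.88 hid the same split of mice. Replicates 2, 4 and 6 stood at 1.39, 2.51 and 1.28, and replicates 1, 3 and 5 at -0.57, -1.68 and -2.16. The widest gap between these mice was over 4 log2 units, in a gene that was well above background in both channels of every array.

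After normalization the Cxcl10 pool was higher at both ages whose ratios were called lower. Its level was 12.75 and 13.01 log2 units at 10 days and 12 weeks, and 10.87 and 11.16 at 4 and 20 weeks, with SDs of 0.08 to 0.16 over its readings. Before normalization, its background-subtracted Cy3 signals ran from 4648 to 5485 at 10 days and from 2614 to 3659 at 12 weeks. At 4 and 20 weeks they ran from 2336 to 3300 and from 2417 to 3665, much as at 12 weeks. Pool probes well above background were 44.1% to 48.0% and 39.4% to 43.6% at 10 days and 12 weeks. At 4 and 20 weeks they were 52.8% to 59.8% and 56.2% to 60.4%, and the part of this was not tested. The normalized NOD channel stood at 10.94 ± 1.04, 11.00 ± 1.79, 11.66 ± 0.66 and 13.00 ± 0.95 in the order of age. Within NOD islets alone, 20 weeks exceeded 4 weeks by 2.01 (4.02-fold, limma adjusted p = 0.0205) and 10 days by 2.06 (4.18-fold, limma adjusted p = 0.0184), beside 4.16% and 3.37% of genes called higher. The other 4 NOD-channel comparisons of Cxcl10 had limma adjusted p from 0.225 to 0.960, and that of 12 weeks with 10 days was 0.72 with an interval of -0.62 to 2.06. The call against 4 weeks was lost without 4-week replicate 3 or 5 or 20-week replicate 2 or 3.

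**Figure D2:**
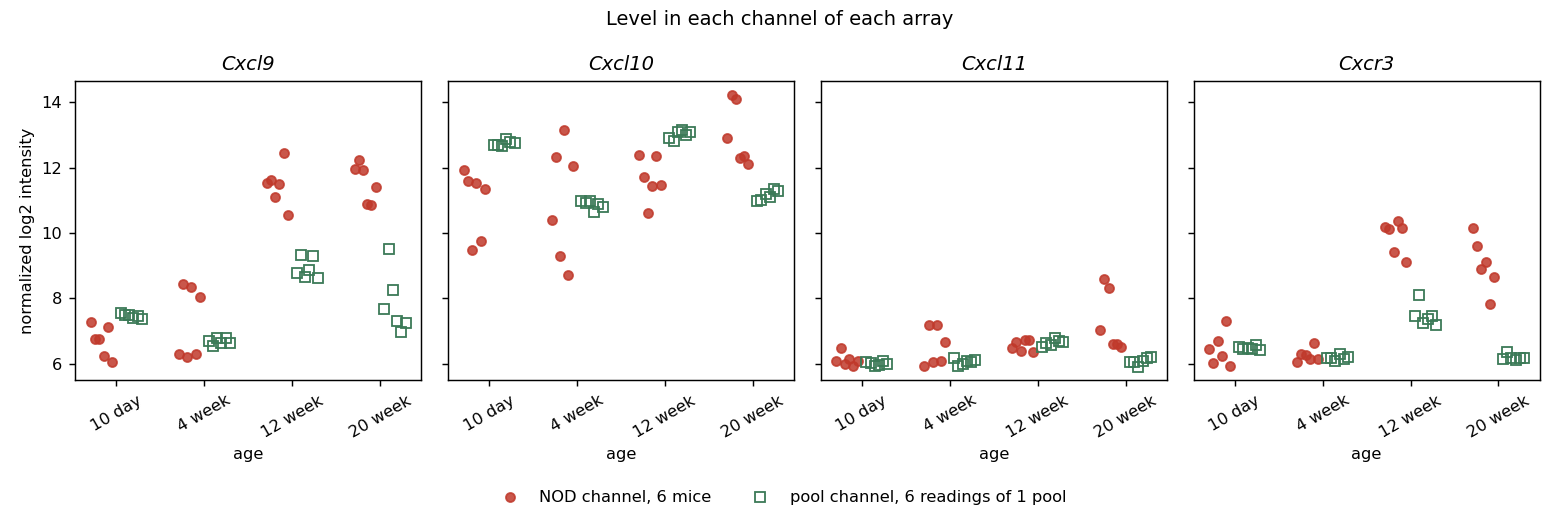
Normalized log2 intensity of the NOD channel (filled circles, 6 mice) and of the pool channel (open squares, 6 readings of 1 pool), in 4 panels by gene and by age on the horizontal axis. The Cxcl10 pool is near 13 log2 units at 10 days and 12 weeks and near 11 at 4 and 20 weeks, and the Cxcl9 pool readings at 20 weeks spread from 6.98 to 9.52.

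In ratio terms Cxcl10 rose by 1.94 ± 0.68 (SE) from 10 days to 4 weeks, by 3.20 ± 0.68 from 12 to 20 weeks and by 3.66 ± 0.68 from 10 days to 20 weeks (limma adjusted p = 0.0202, 0.00148 and 8.33e-05). No mouse of 20 weeks overlapped a mouse of 10 days or 12 weeks, with the share of all genes without overlap not counted. The call from 10 days to 4 weeks was lost without 10-day replicate 3 or 5 or 4-week replicate 2 or 4, at 1.46 to 1.69. Under median centring it and the step from 12 to 20 weeks were 0.83 and 1.43 (limma adjusted p = 0.372 and 0.124). The comparisons of 12 with 4 weeks, of 12 weeks with 10 days and of 20 with 4 weeks were not called, at -1.48, 0.45 and 1.72. Slides that carried both ages gave 2.64 for 4 weeks minus 10 days and 3.72 for 20 minus 12 weeks.

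The Cxcl10 calls were the most open to scaling among the members. Centring each array on its median in place of loess gave -1.05 at 10 days, -0.21 at 12 weeks and 1.22 at 20 weeks, none of them called (limma adjusted p = 0.120, 0.753 and 0.0885). In that setting the median of all genes itself stood at 0.38, -0.15, 0.50 and -0.21 from 10 days to 20 weeks, and relative to it Cxcl10 was -1.43 at 10 days, -0.72 at 12 weeks and 1.43 at 20 weeks. The scanner software's own ratio kept the 3 calls, at -1.75, -1.25 and 1.88. The 12-week call was also lost without replicate 3, 4 or 6 of that age, with means of -1.13, -1.28 and -1.30.

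Cxcl11, the ligand with the highest affinity for CXCR3 where it is made, was dim. It was well above background in the NOD channel on 1, 3, 6 and 6 of 6 arrays at 10 days, 4, 12 and 20 weeks, and in the pool channel on 0, 1, 5 and 6. The ratio was called at 20 weeks alone, where the lowest, median and highest values were 0.33, 0.74 and 2.54. The mean of 1.20 ± 1.01 was 2.30-fold higher in NOD (limma adjusted p = 1.78e-04). Replicates 2 and 3, at 2.54 and 2.40, stood above the other 4 mice. Without either of them the mean fell below 2-fold, to 0.93 or 0.96. In the scanner software's own ratio the 6 mice stood at 2.68, 3.79, 4.13, 2.02, 2.38 and 2.14, in the order of replicates. Every mouse exceeded 2-fold there, so the 2.30-fold size and the drop below 2-fold hold for the loess ratio. The part of dim spots in this gap was not tested.

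With Cxcl11, 4 of 4 members were called higher at 20 weeks, where 3.87% of all genes were called higher and 1.23% lower. At 12 weeks 2 of 4 were called higher, Cxcl9 and Cxcr3, where 2.09% of genes were. At 4 weeks, where 1.9% of genes were called higher and 0.879% lower, the limma adjusted p of Cxcl9, Cxcl10, Cxcl11 and Cxcr3 were 0.0844, 0.843, 0.108 and 0.807.

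At 10 days and 12 weeks the Cxcl11 means of 0.11 ± 0.20 and -0.09 ± 0.13 were small beside the spread between mice, and their limma adjusted p were 0.718 and 0.804. At 4 weeks replicates 2, 4 and 6 had the 3 highest ratios, 1.24, 1.12 and 0.53, and the others lay between -0.22 and 0.06. The ratio at 20 weeks exceeded that at 12 weeks by 1.28 ± 0.33 (SE) and that at 10 days by 1.09 ± 0.33 (limma adjusted p = 0.00616 and 0.00785). In the NOD channel 20 weeks minus 10 days was 1.16 (limma adjusted p = 0.00631), with the 10-day side well above background on 1 of 6 arrays. There no mouse of these ages overlapped, and the share of all genes without overlap was not counted. Without 20-week replicate 2 or 3 both differences from 10 days fell below 2-fold, to 0.82 and 0.84 as ratios and to 0.88 and 0.94 in the NOD channel.

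Cxcr3, the receptor gene, had ratios near 0 in young NOD islets, where both channels were dim, and lay above the pool in every older mouse. The NOD channel was well above background on 3, 2, 6 and 6 of 6 arrays from 10 days to 20 weeks, so the younger ratios rest partly on dim spots. The mean ratio was -0.05 ± 0.46 at 10 days and 0.07 ± 0.24 at 4 weeks (limma adjusted p = 0.870 and 0.807). At 12 weeks the lowest, median and highest ratios were 1.93, 2.43 and 3.02, and the mean of 2.42 ± 0.45 was 5.37-fold higher in NOD (limma adjusted p = 6.21e-09). At 20 weeks they were 1.65, 2.86 and 4.03, and the mean of 2.86 ± 0.79 was 7.25-fold higher (limma adjusted p = 4.62e-10). No older mouse overlapped a younger one, again without a count of how many of all genes lacked overlap. All 6 mice lay above 0 for 26.5% of genes at 12 weeks and for 17.5% at 20 weeks.

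The Cxcr3 ratio rose by 2.36 ± 0.29 (SE) from 4 to 12 weeks (limma adjusted p = 5.05e-06) and was not called different between 12 and 20 weeks, at 0.43 with a 95% interval of -0.16 to 1.03. In the NOD channel it stood at 6.44 ± 0.52, 6.25 ± 0.21, 9.90 ± 0.51 and 9.05 ± 0.80 log2 units in the order of age. The step from 4 to 12 weeks was 3.64 (limma adjusted p = 4.23e-08), with the 4-week side above background on 2 of 6 arrays. From 12 to 20 weeks the NOD channel moved by -0.85 with an interval of -1.47 to -0.22, which was not called (limma adjusted p = 0.0982); without 20-week replicate 1 it was -1.07 (limma adjusted p = 0.0272). On the shared slide, the 20-week mice exceeded the 12-week mice by 1.32 in ratio and by 0.25 in the NOD channel.

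The size of the Cxcr3 ratio depended on how dim pool spots were handled. The pool was well above background on 5, 2, 3 and 6 of 6 arrays from 10 days to 20 weeks, and an offset of 50 added to every signal draws ratios of dim spots toward 0. Without the offset the means were 3.77 at 12 weeks and 4.02 at 20 weeks, and in the scanner software's ratio 4.66 and 4.50. All 3 settings called both ages. Of 12 T cell markers measured, 6 were called higher at 12 weeks and 9 at 20 weeks. Their summed level in the NOD channel, in linear normalized intensity, was 1252 to 1543 at 4 weeks, 5693 to 14529 at 12 weeks and 3427 to 11591 at 20 weeks, against 1048 to 1081, 1741 to 2760 and 1030 to 1350 in the pool. Their part in the Cxcr3 result was not tested.

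**Figure D3:**
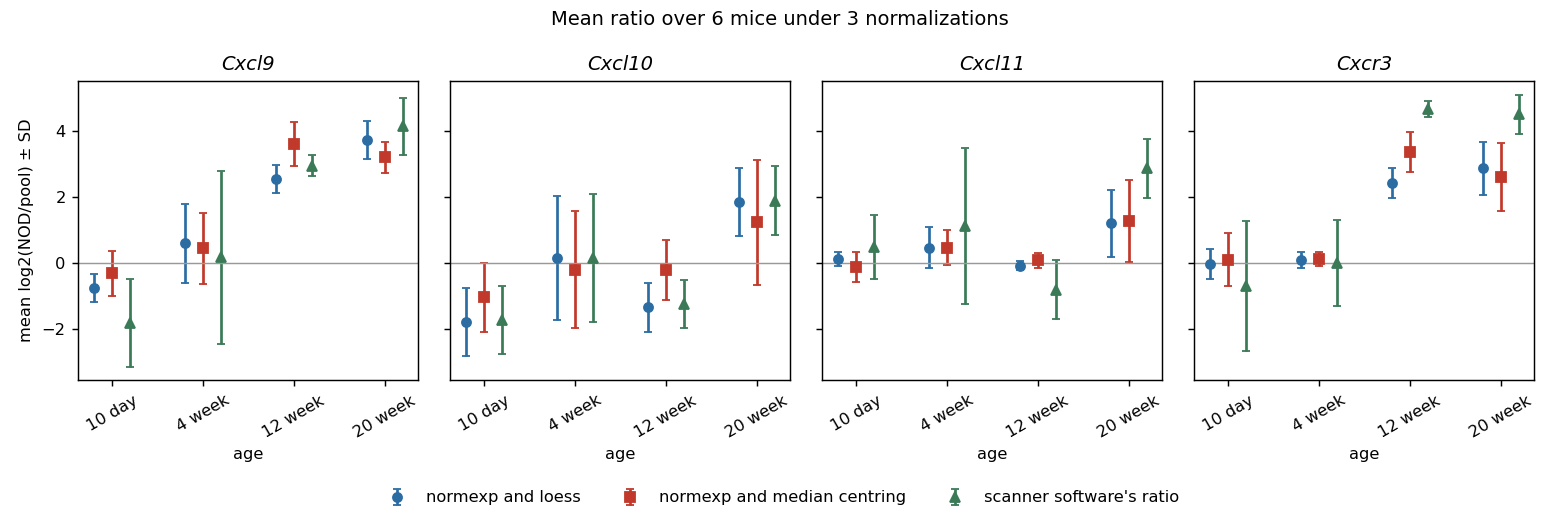
Mean log2(NOD/pool) ± SD over 6 mice for each gene and age under normexp with loess, normexp with median centring and the scanner software's own ratio. Cxcr3 at 12 weeks is 2.42, 3.34 and 4.66 in these settings, and Cxcl10 at 12 weeks is -1.35, -0.21 and -1.25.

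All 4 genes passed the moderated F test for any difference among the ages, with limma adjusted p of 1.97e-08 for Cxcl9, 2.15e-04 for Cxcl10, 0.00697 for Cxcl11 and 9.99e-09 for Cxcr3. So did 76% of all genes, and 56.8% did in the NOD channel.

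The 3 ligand genes were compared within each mouse, as the difference of 2 log2 ratios on the same array, by two-sided exact sign-flip tests over 6 mice for 12 comparisons. The smallest p that 6 mice allow is 0.0313, which gives 0.0469 after adjustment here, so a pass means that all 6 mice had the same sign. At 10 days Cxcl9 minus Cxcl10, Cxcl9 minus Cxcl11 and Cxcl10 minus Cxcl11 were 1.05, -0.87 and -1.92 (exact adjusted p = 0.0469 for each). Cxcl11 was well above background there on 1 of 6 NOD and 0 of 6 pool arrays, and the offset draws such ratios toward 0. The differences from Cxcl11 at that age therefore add little to the Cxcl9 and Cxcl10 ratios, which lay below 0 in every mouse. At 12 weeks Cxcl9 exceeded Cxcl10 by 3.89 ± 0.62, with a range of 3.28 to 4.91, and Cxcl11 by 2.62 ± 0.32 (exact adjusted p = 0.0469 for both). Cxcl10 minus Cxcl11 was -1.27 at 12 weeks and 0.65 at 20 weeks (exact adjusted p = 0.0469 for both). At 20 weeks Cxcl9 exceeded Cxcl11 by 2.52 ± 1.45 in 6 of 6 mice, and Cxcl10 by 1.87 ± 1.46 in 5 of 6, the latter short of the threshold (exact adjusted p = 0.0833). At 4 weeks no pair differed beyond the spread between mice, with means of 0.46, 0.13 and -0.33 (exact adjusted p = 0.338, 0.625 and 0.625). Under median centring and in the scanner ratio no pair passed the adjusted exact test at any age, with Cxcl9 minus Cxcl10 at 12 weeks at 3.82 and 4.19 (exact adjusted p = 0.125 and 0.0750).

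A probe's dye effect stays in such a difference, so the differences were also compared between ages, 6 mice against 6, by 18 two-sided exact permutation tests. A difference between the pools of 2 ages stays in these comparisons, and with 1 pool per age the p does not measure it. Cxcl9 minus Cxcl10 was larger at 12 weeks than at 4 weeks by 3.44 and than at 20 weeks by 2.02 (exact permutation adjusted p = 0.00557 and 0.00974). The comparison with 20 weeks was 1.85 under median centring and 1.93 in the scanner ratio (exact permutation adjusted p = 0.0223 and 0.0623). Cxcl9 minus Cxcl11 was larger at 12 weeks than at 4 weeks by 2.49 (exact permutation adjusted p = 0.00557) and differed by -0.10 from 12 to 20 weeks (exact permutation adjusted p = 0.872). The latter was -1.61 under median centring and -2.49 in the scanner ratio, both past the threshold (exact permutation adjusted p = 0.00779 for each). Cxcl10 minus Cxcl11 was larger by 1.92 at 20 than at 12 weeks (exact permutation adjusted p = 0.00557), but the difference was 0.24 under median centring and -0.55 in the scanner ratio (exact permutation adjusted p = 0.686 and 0.0929). Both comparisons that involve Cxcl11 from 12 to 20 weeks thus changed their call with the setting, and these settings were chosen after seeing the data. In the NOD channel alone, Cxcl10 and Cxcl11 moved by 1.34 and 0.72 from 12 to 20 weeks, neither of them called. Their pool levels went from 13.01 to 11.16 and from 6.64 to 6.08 log2 units. The part of the pools in these differences was not tested.

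The 6 mice of 4 weeks split in the same way for some other inducible genes. The sets were read from the ligand ratios themselves, and the share of all genes that part these mice in this way was not counted. Gbp2, an interferon-induced GTPase, stood at 2.26, 3.64 and 2.01 in replicates 2, 4 and 6 and at 0.43, -0.60 and -0.68 in replicates 1, 3 and 5. Ifit1, a type I interferon target, stood at 0.95, 1.66 and 1.04 in the first set and at -0.25, -0.24 and -1.15 in the second. Irf1 and Ccl2, a monocyte chemokine, also had their 3 highest values in replicates 2, 4 and 6. Ifng, the interferon gamma gene, did not: its values were 0.60, -0.17 and -0.08 in those mice and -0.14, -0.14 and 0.45 in the others. Cxcr3 and the T cell gene Cd3d did not split so either, and the mean ratio over 12 T cell markers ran from 0.09 to 0.32 across the 6 mice. At 4 weeks the mean NOD and pool levels were 6.26 and 6.18 log2 units for Ifng and 6.24 and 6.61 for Cd3d. For Cxcr3 they were 6.25 and 6.19, with 2 of 6 arrays well above background in each channel. The offset draws ratios of dim spots toward 0, so a small split in these genes could be missed. Both sets of mice appear on each of the 2 slides that carried this age.

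**Figure D4:**
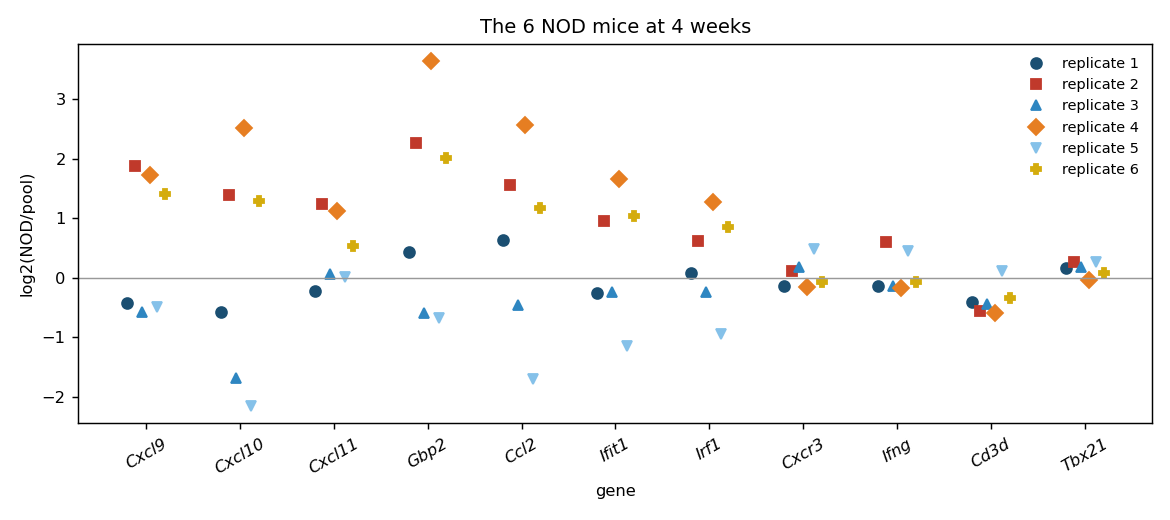
log2(NOD/pool) of 11 genes in the 6 NOD mice of 4 weeks, 1 symbol per mouse. Replicates 2, 4 and 6 (warm colours) lie above replicates 1, 3 and 5 (blue) for Cxcl9, Cxcl10, Cxcl11, Gbp2, Ccl2, Ifit1 and Irf1, and not for Cxcr3, Ifng, Cd3d or Tbx21. The last 4 genes were dim at this age, with mean NOD levels of 6.25, 6.26, 6.24 and 6.34 log2 units, so a small split could be missed.

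At 20 weeks the mice differed in another set. Replicates 2 and 3 had the highest Cxcl10 (3.23 and 2.93) and Cxcl11 (2.54 and 2.40), and also the highest Ifit1 (2.37 and 2.69, against -0.21 or less in the rest), Il6 and Ccl2. The Cxcl9 ratio of replicate 2, at 2.71, was the lowest of that age, while its NOD channel (12.23) and its pool reading (9.52) were both the highest of the 6. Replicates 2 and 3 also had the largest shares of NOD-channel probes well above background, 64.6% and 60%, against 42.3% to 52.1% in the other 4 mice, and the part of this in the split was not tested.

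Over the mice of 1 age, 24 correlations between members were computed. The mice of 4 weeks form 2 sets for the ligand genes, so no correlation among ligands is given for that age. Of all 24, only Cxcl10 with Cxcl11 at 20 weeks passed adjustment: Pearson's r was 0.99 (exact permutation p = 0.00139, adjusted 0.0333) and Spearman's rho 1.00 (exact permutation p = 0.00278, adjusted 0.0667). Without the 2 mice farthest from the median, replicates 2 and 3, r was 1.00 over 4 mice. Cxcl9 with Cxcl10 at 20 weeks had r = -0.65 (exact permutation p = 0.158, adjusted 0.325), and Cxcl9 with Cxcr3 at 12 weeks r = 0.76 (exact permutation p = 0.0736, adjusted 0.252). The 20-week Cxcl9 ratios carry pool readings that spread from 6.98 to 9.52 log2 units. The sign of that r can therefore not be read as the NOD mice alone, and the part of the pool readings was not tested. Under median centring and in the scanner's ratio no pair passed adjustment, with 9 and 6 of 24 at an unadjusted p under 0.05.

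The genes upstream of the ligands were next described through lists, as counts and medians. The median ratio of all genes tested lay between -0.01 and 0.03 at each age. Of 17 measured genes of interferon gamma signalling, 4 were called higher at 12 weeks and 7 at 20 weeks, with list medians of 0.22 and 0.91. Ifng itself was 2.43 ± 0.61 at 12 weeks and 2.85 ± 1.04 at 20 weeks (limma adjusted p = 5.31e-07 and 3.65e-08), and 0.07 ± 0.74 and 0.09 ± 0.34 at the younger ages. Irf1, a transcription factor induced by interferon gamma, was called at no age and lay at -0.53 ± 0.50 at 12 weeks. Tbx21, the T-bet gene of T helper 1 cells, was 2.48 ± 0.48 at 20 weeks, and Socs1, a feedback inhibitor, was 2.07 ± 0.62 there and -1.61 ± 0.61 at 10 days.

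Of 22 other interferon gamma targets measured, 11 were called higher and 1 lower at 12 weeks, and 18 were called higher at 20 weeks, with medians of 0.99 and 1.62. At 12 weeks the immunoproteasome genes Psmb8 and Psmb9 were 2.62 ± 0.40 and 2.04 ± 0.22, and the ubiquitin-like gene Ubd was 2.25 ± 0.52. At 20 weeks Ubd reached 3.62 ± 0.45, and the interferon-inducible GTPases Igtp and Tgtp1 2.79 ± 0.85 and 2.74 ± 0.64. Gbp2 was the only gene of the list called at 4 weeks, at 1.18 ± 1.74, with 3 of the 6 mice above 2 and the others at 0.43 or below.

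Type I interferon targets and NF-kB genes had calls in both directions at 12 weeks, when the Cxcl10 ratio was called lower. Of 22 type I interferon targets, 2 were called higher and 5 lower at 12 weeks, and 7 were called higher at 20 weeks. Ifit1 was -1.51 ± 0.45 at 12 weeks, and the antiviral gene Rsad2 was -2.05 ± 0.65. Under median centring the 12-week count became 5 higher and 0 lower. That setting raised the median of all genes to 0.50 at 12 weeks and called 23.5% of them higher and 0.171% lower, so the 5 of 22 is near the share of all genes. Of 18 NF-kB and acute inflammation genes, 4 were called lower at 10 days, 2 higher and 5 lower at 12 weeks, and 7 higher at 20 weeks. Il6, an inflammatory cytokine, was -4.17 ± 0.58 at 12 weeks (limma adjusted p = 1.51e-07), and Ccl2 was -2.25 ± 0.52. For both genes the normalized pool level at 12 weeks was high, at 12.31 and 12.83 log2 units, as it was for Cxcl10. Under median centring the 12-week NF-kB count became 4 higher and 2 lower, with Il6 at -3.10, beside the same all-gene shares. The 4 calls at 10 days were lost there, where that setting called 14.9% of all genes higher and 0.293% lower.

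Immediate early and dissociation genes, which respond to tissue handling, also differed from the pools. Of 12, 2 were called higher and 5 lower at 10 days, 4 lower at 4 weeks, and 2 higher and 1 lower at 12 weeks. Egr1 was -1.75 ± 0.53 at 10 days and -1.15 ± 0.77 at 4 weeks, and the heat shock gene Hspa1a was 1.80 ± 0.59 at 10 days. Under median centring these counts became 2 higher and 1 lower at 10 days, 7 lower at 4 weeks and 7 higher at 12 weeks, beside 3.57% of all genes called lower at 4 weeks and 23.5% higher at 12 weeks. Their part in the Cxcl10 ratios was not tested.

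The T helper 1 and cytotoxic list holds genes of the cells that carry CXCR3. Of 17 measured T helper 1 and cytotoxic genes, 7 were called higher at 12 weeks and 11 at 20 weeks. The list medians were 0.06, -0.01, 0.74 and 1.99 in the order of age. The granule gene Nkg7 was 2.57 ± 0.52 and 2.94 ± 0.58 at these ages, and Il2rb, a subunit of the interleukin 2 and 15 receptors, 2.01 ± 0.48 and 2.88 ± 0.59. Cd8a, a coreceptor of cytotoxic T cells, was 1.53 ± 0.55 and 2.15 ± 0.50. Ifng and Tbx21 also stand in the interferon gamma signalling list.

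Of 12 other chemokine receptors, 3 were called higher at 12 weeks and 6 at 20 weeks. Ccr7, which guides naive lymphocytes and mature dendritic cells, was 1.46 ± 0.49 and 2.70 ± 0.49, and Cxcr4, the CXCL12 receptor, 1.18 ± 0.42 and 2.50 ± 0.67. At 4 weeks, when Cxcr3 was not called, Ccr3 (1.44 ± 0.36) and Ccr4 (1.17 ± 0.50) were. Of 10 other CXC ligands, 2 were called lower at 10 days, 1 lower at 12 weeks and 4 higher at 20 weeks, but under median centring the calls at 10 days were lost, 3 were higher at 12 weeks and 1 at 20 weeks, against 23.5% and 2.50% of all genes. Cxcl13, the B cell chemokine, was -1.08 ± 0.82 at 10 days and 1.91 ± 1.17 at 20 weeks, and Cxcl1, a neutrophil chemokine, was -1.64 ± 0.75 at 12 weeks and 1.49 ± 1.10 at 20 weeks.

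Of 7 genes whose products cleave or scavenge CXCR3 ligands, 1 was called, the atypical receptor gene Ackr1, at 1.41 ± 0.87 at 20 weeks, a call lost under median centring (0.99). Among 12 genes of signalling below the receptor, 3 were called higher at 12 weeks and 4 at 20 weeks, which under median centring became 8 higher, and 2 higher and 2 lower, where 7.58% of all genes were called lower at 20 weeks. They included Coro1a (2.59 ± 0.39 and 2.38 ± 0.66) and Rac2 (1.60 ± 0.24 and 1.75 ± 0.44), which act on the actin cytoskeleton of blood cells, and the beta-arrestin gene Arrb1 (1.21 ± 0.23 and 1.15 ± 0.48).

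**Figure D5:**
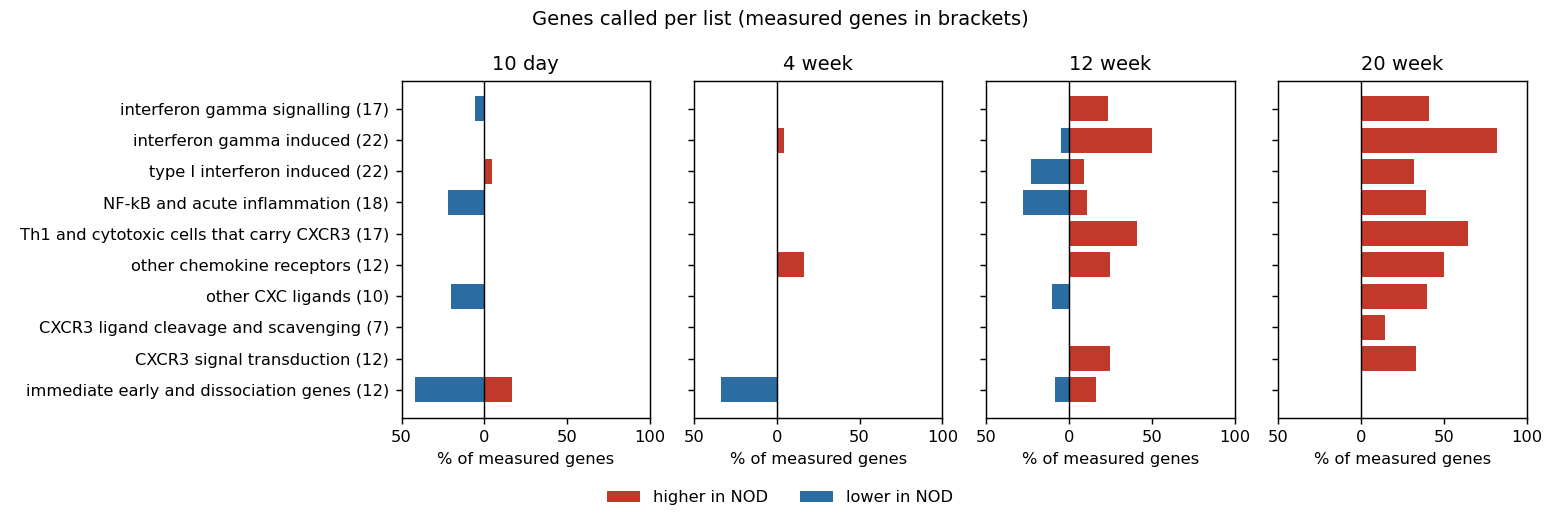
Share of the measured genes of each list called higher (right of 0, red) or lower (left of 0, blue) in NOD islets at each age. At 20 weeks 18 of 22 interferon gamma targets and 11 of 17 T helper 1 and cytotoxic genes are called higher; at 12 weeks type I interferon targets show 2 higher and 5 lower, which under median centring is 5 higher and 0 lower, with 23.5% of all genes called higher.

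Across the 24 arrays, the genes most like each member were listed, with the other members left out. Among the members themselves r ran from 0.28 (Cxcl11 with Cxcr3) to 0.85 (Cxcl9 with Cxcr3), and Cxcl10 with Cxcl11 had 0.84. The genes whose ratios were most like Cxcl9 were Apol6, Serpina3g, B2m, Ly6a and Scrib, with r from 0.92 to 0.94. Those most like Cxcl10 were Stx11, Casp4, Sntb2, Smim3 and Rnf125 (r from 0.92 to 0.95), and those most like Cxcl11 were Ifi207, Apol9a, Mx1, Ifih1 and Slfn10-ps (0.92 to 0.96). Those most like Cxcr3 were the integrin gene Itgb2, the cell division genes Pclaf and Ncapg, Wipf1 and the lectin-like receptor gene Klrd1 (all 0.98). These values share the age groups, the pools and the slides, and describe likeness over 24 arrays with no test.

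After each age's mean was removed, Cxcl10 was most like Ccl2 (r = 0.95) and Tlr2 (0.95), then Stx11, Stard5 and Ralgds. Cxcl11 was most like Ifi207, Apol9a, Ifit1, Mx1 and Ifit1bl1 (0.92 to 0.95). Cxcr3 was most like Arhgef6, Gpsm3, Prkcq, Ptpn7 and Zap70 (0.94 to 0.95), of which Prkcq and Zap70 encode kinases of T cell receptor signalling. Cxcl9 was less closely matched, by Ly6a, Fgl1, Cercam, Serpina3g and Tgtp1 (0.71 to 0.79).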

How the data were processed

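Gene expression was measured in islets of 24 female NOD mice on Agilent 4×44K two-colour arrays (design 014868). Per the file headers, the authors' scanner files came from Feature Extraction 10.7.3.1 and give spot intensity and background per channel and the software's log10 ratio after its own dye normalization. The deposited table of values is in log2 and matches the scanner's ratio, with a slope of 1.00 on each array. Replicates are separate mice, per the labels.

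Intensities were background corrected by normexp (offset 50), normalized by loess within arrays without control spots, and averaged per probe, in R 4.3.3 with limma 3.58.1 and statmod 1.5.0. Outlier-flagged spots were set to missing (44 ratios, none of a member). Of 41174 probes, 25931 passed a minimum of 6 arrays with either channel well above background, and the brightest probe stood for a gene. NOD channel levels came from Aquantile scaling. All 24 arrays entered 1 limma fit with age means, with Benjamini-Hochberg adjustment over 18085 genes. Contrasts give standard errors and 95% intervals. The fit was tested on simulated data. The number of arrays limits the precision.

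The dyes are given by the labels and were the same on every array. Arrays of 1 age correlated at 0.19 or above, and arrays of different ages, each against its own pool, at as low as -0.54. Replicate numbers did not pair mice across ages (median r of deviations -0.10 over 36 same-numbered pairs).

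Named genes were the members, 10 genes named whatever their result, up to 3 called genes per list and age, and the 5 most alike genes per member. Some of these genes are not reported here. The members and lists were chosen with earlier results of these data known. Alternatives were the scanner ratio, the deposited table, median centring, no offset, 2 other filters, replicate and slide blocks, and leaving out arrays. Promoter sequences are from RefSeq (GRCm38.p6), which matched 3 of 4 members.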

Additional observations from a re-analysis of the deposited data

Results flagged for a closer look

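One sample stood apart from its group. The NOD channel of Cxcl11 at 10 days was 6.48 log2 units in replicate 2, the highest of that age, and its gap to the next mouse took 0.628 of the group's range. It was the only such case among 32 groups of member values, and chance gives about 1 in 20 groups. That spot lies at the dim end, where only 1 of 6 arrays was well above background.

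The ratio of NOD to pool differed between ages by limma's test of the difference in 15 comparisons of member genes. For Cxcl9 the later age was higher by 1.35 (4 weeks against 10 days), 1.95 (12 against 4 weeks), 1.18 (20 against 12 weeks), 3.30 (12 weeks against 10 days), 3.13 (20 against 4 weeks) and 4.48 (20 weeks against 10 days). For Cxcl10 the differences were 1.94 (4 weeks against 10 days), 3.20 (20 against 12 weeks) and 3.66 (20 weeks against 10 days). For Cxcl11 they were 1.28 (20 against 12 weeks) and 1.09 (20 weeks against 10 days). For Cxcr3 they were 2.36 (12 against 4 weeks), 2.47 (12 weeks against 10 days), 2.79 (20 against 4 weeks) and 2.90 (20 weeks against 10 days). Each includes the difference between the pools of both ages.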

How the results depend on the processing

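Of the member results under other settings, 396 kept direction and side of the threshold, 13 lost and 10 gained a call, and 13 changed sign. Changing the filter on dim probes moved no member call, but each member has 1 probe that passed every filter, so its ratios were the same there. The deposited table matches the scanner ratio, so these counts hold nearly the same setting under both names. All causes below were not tested. In the scanner ratio and the deposited table alike, Cxcl9 was -1.83 at 10 days, 1.99 from 10 days to 4 weeks and 1.19 from 12 to 20 weeks, Cxcl11 was -1.93 from 4 to 12 weeks, and Cxcr3 was -0.0089 at 4 weeks and -0.15 from 12 to 20 weeks. Without the offset Cxcl9 was -1.38 at 10 days and 1.27 from 12 to 20 weeks.

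Median centring moved the median of all genes to 0.38, -0.15, 0.50 and -0.21 at 10 days, 4, 12 and 20 weeks. It gave Cxcl9 0.75 from 10 days to 4 weeks and -0.42 from 12 to 20 weeks. Cxcl10 became -1.05, -0.22, -0.21 and 1.22 at the 4 ages, 0.83 from 10 days to 4 weeks, 0.0022 from 4 to 12 weeks and 1.43 from 12 to 20 weeks. Cxcl11 became -0.14 at 10 days, 0.069 at 12 weeks and 0.21 between them, and Cxcr3 0.086 at 10 days and -0.75 from 12 to 20 weeks.

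Replicate numbers did not pair mice. With the replicate number as a block, Cxcl9 from 12 to 20 weeks stayed at 1.18 but lost its call (limma adjusted p = 0.0580), and Cxcl10 from 4 to 20 weeks, at 1.72, gained one (limma adjusted p = 0.0496). No other member call changed under it. With the slide as a random block Cxcl10 was -1.41 from 4 to 12 weeks and 1.73 from 4 to 20 weeks, both called, its NOD channel was -0.046 from 10 days to 4 weeks, and 103 genes were called in the NOD channel from 12 to 20 weeks against 63. The slide block on the NOD channel was chosen after seeing the data. Without 20-week replicates 5 and 6 together, Cxcl9 was 1.03 from 12 to 20 weeks, Cxcl10 and Cxcl11 were 2.19 and 1.15 from 4 to 20 weeks, both called, and 1530 genes were called from 4 to 20 weeks.

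The differences between ligand genes within an age depended on the setting. At 10 days, Cxcl9 minus Cxcl10, Cxcl9 minus Cxcl11 and Cxcl10 minus Cxcl11 were 0.73, -0.19 and -0.91 under median centring and -0.078, -2.30 and -2.22 in the scanner ratio. At 12 weeks they were 3.82, 3.54 and -0.28, and 4.19, 3.76 and -0.43. Cxcl9 minus Cxcl11 was -0.023 and -0.95 at 4 weeks and 1.93 and 1.28 at 20 weeks, and Cxcl10 minus Cxcl11 was -0.038 and -0.98 at 20 weeks. Between ages, with alternatives chosen after seeing the data, Cxcl9 minus Cxcl11 from 12 to 20 weeks was -1.61 and -2.49 under these settings, Cxcl10 minus Cxcl11 was 0.24 and -0.55, and Cxcl9 minus Cxcl10 was -1.93 in the scanner ratio. The number of correlations past the threshold fell from 1 to 0 in both.

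The number of genes called at 10 days, 4, 12 and 20 weeks was 719, 503, 635 and 921. It was 2910, 2123, 3254 and 2991 in the scanner ratio, 2437, 1550, 2648 and 2344 in the deposited table, 2755, 780, 4290 and 1824 under median centring, and 1695, 1008, 1502 and 1792 without the offset. The share of these calls that were higher in NOD was 40.6%, 68.4%, 59.5% and 75.9%, against 98.1%, 17.3%, 99.3% and 24.8% under median centring and 55.5%, 57.2%, 64.4% and 49.4% in the scanner ratio. From 10 days to 4 weeks, 4 to 12 weeks, 12 to 20 weeks and 10 days to 20 weeks, the counts were 1628, 1094, 436 and 2267, against 4546, 4358, 2577 and 5704 in the scanner ratio, 3761, 3539, 1990 and 4683 in the deposited table, 5905, 7103, 7665 and 7069 under median centring, and 3077, 2446, 1078 and 4185 without the offset. From 10 days to 12 weeks and from 4 to 20 weeks they were 1576 and 870, against 4712 and 2304, 4105 and 1726 in these first 2 settings, and 3220 and 1637 without the offset.

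Leaving out 1 mouse at a time gave Cxcl9 from 12 to 20 weeks 1.06 to 1.38, and -0.095 to 0.29 in the NOD channel. Cxcl10 was -0.35 to 0.59 at 4 weeks, negative without replicate 2, 4 or 6, and -1.52 to -1.13 at 12 weeks. Between ages it was 1.46 to 2.40 from 10 days to 4 weeks, -1.94 to -1.01 from 4 to 12 weeks and 1.26 to 2.19 from 4 to 20 weeks. Its NOD channel was -0.38 to 0.51 from 10 days to 4 weeks and 1.55 to 2.44 from 4 to 20 weeks. Cxcl11 was 0.93 to 1.37 at 20 weeks and 0.82 to 1.26 from 10 days to 20 weeks, and in the NOD channel -0.074 to 0.18 from 4 to 12 weeks and 0.88 to 1.31 from 10 days to 20 weeks. Cxcr3 was -0.20 to 0.041 at 10 days, -0.015 to 0.11 at 4 weeks and -1.07 to -0.61 in the NOD channel from 12 to 20 weeks. At 4 weeks Cxcl9 minus Cxcl11 was -0.020 to 0.28 and Cxcl10 minus Cxcl11 -0.67 to 0.043. From 12 to 20 weeks Cxcl9 minus Cxcl11 was -0.37 to 0.37, above 0 without 20-week replicate 2 or 3. The NOD channel calls from 12 to 20 weeks were 27 to 103. Each member has 1 probe, so no other probe could be tried. Dim spots limit Cxcl11 and both sides of Cxcr3 at 10 days and 4 weeks, and the Cxcr3 pool at 12 weeks.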
